A study of Mus musculus with 8 samples.

Results

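The respiratory chain genes described here are 79 protein-coding genes of 45777 genes counted, 21949 of them protein-coding. They were chosen by symbol: 13 genes of the mitochondrial chromosome and 66 nuclear genes for structural subunits of complexes I to IV. By complex, the mitochondrial members hold 7 genes of complex I, 1 of complex III, 3 of complex IV and 2 of complex V. The nuclear members hold 36 genes of complex I, 4 of complex II, 8 of complex III and 18 of complex IV. Their complex was assigned by the start of the symbol alone, which places Ndufa4, for example, in complex I. Nuclear ATP synthase genes are no members and are given as a related list.

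The 8 bulk RNA-seq libraries came from mouse organoids, clusters of epithelial cells kept in culture, labelled as hepatocellular carcinoma of metabolic dysfunction-associated steatohepatitis. The lenvatinib group held 2 libraries, from organoid lines SNU-6624-TO and SNU-6625-TO treated with lenvatinib, an oral inhibitor of growth factor receptor kinases. The resistant group held 2 libraries, from the lenvatinib-resistant lines SNU-6624-TO-LEN and SNU-6625-TO-LEN, whose treatment label is control. The parental group held 4 control libraries, from lines SNU-6621-TO, SNU-6622-TO, SNU-6624-TO and SNU-6625-TO. All carry a wild-type genotype label. The labels give no dose, no duration of treatment, no animal behind a line and no strain or age. Lines SNU-6621 and SNU-6622 gave a parental library only, and lines SNU-6624 and SNU-6625 gave 1 library per group. The tests take out the level of each line, so p-values rest on how differences between groups varied across these 2 lines.

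The respiratory chain passes electrons from NADH (complex I) or succinate (complex II) through complex III to oxygen at complex IV, and the proton gradient it builds drives ATP synthase, complex V. Complexes I, III, IV and V need subunits from both genomes. Complex II is wholly nuclear. Mammalian mitochondrial DNA is transcribed into long precursors from both strands, which are cut at tRNAs and then mostly polyadenylated, so the level of each mitochondrial mRNA depends on processing and stability as well as on transcription. Hepatocytes are rich in mitochondria.

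Some mitochondrial members share bases. The stretches where mRNAs run into each other on the same strand are shown because reads there belong to both genes. Sequences are from GENCODE M21 transcripts on GRCm38, the mm10 build, plus strand, 5′ to 3′, with the shared bases in capitals.
ATP8 into ATP6, chrM:7915-7981: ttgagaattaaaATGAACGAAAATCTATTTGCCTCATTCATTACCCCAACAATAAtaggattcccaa
ND4L into ND4, chrM:10155-10185: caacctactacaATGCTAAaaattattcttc
ATP6 into COX3, chrM:8595-8619: tgataatacataAtgacccaccaaa
ATP8 and ATP6 share 43 bases, ND4L and ND4 share 7 and ATP6 and COX3 share 1. ND5 and ND6 share 14 bases on opposite strands.

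Polyadenylation completes the stop codon of some mitochondrial mRNAs. Of the 13 annotated transcripts, 10 end in a complete stop codon and 3 (COX3, ND4 and CYTB) end in the first base of one, so that the added tail supplies the rest. The last 21 bases of 4 mRNAs are shown for contrast, with the stop letters in capitals.
ND1 3′ end: ggagtaccaccatacataTAG
ND3 3′ end: ggattagaatgaacagagTAA
COX3 3′ end: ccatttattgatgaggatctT
ND4 3′ end: taattacaggcctgacaataT
The incomplete group did not move as one: with lenvatinib, the log2 fold changes of COX3, CYTB and ND4 were -1.23, -0.84 and -0.01.

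Nuclear members are known to be driven in part by the factors NRF1, NRF2 (an ETS factor also called GABP) and YY1. RefSeq promoters of GRCm38.p6 (250 bases before to 50 after each start) were matched for 53 of the 66 nuclear members. The NRF1-type letters, a palindrome of 10 bases shown in capitals at base 89 of the Cox6a1 promoter, were found in 5.66% of them, against 1.07% of 27025 genes. CCGGAAG (ETS-type) was found in 20.8% against 9.93%, and AAGATGGCG (YY1-type) in 9.43% against 1.64%. Both strands were searched, none of the motifs contains another, and a match is a description of letters, not a bound site. All 5 YY1-type matches lay in complex I genes (Ndufa9, Ndufc1, Ndufs4, Ndufs6 and Ndufs7), at bases 273 to 286, where the start site is base 251. A pair of promoters with matches, in capitals, is shown in the direction of transcription. Cox6a1 (complex IV) has the NRF1-type letters at base 89 and the ETS-type letters, on the other strand, at base 235. Uqcrh (the hinge protein of complex III) has the ETS-type letters, also on the other strand, at base 241.
Cox6a1, chr5:115348909-115349208, minus strand: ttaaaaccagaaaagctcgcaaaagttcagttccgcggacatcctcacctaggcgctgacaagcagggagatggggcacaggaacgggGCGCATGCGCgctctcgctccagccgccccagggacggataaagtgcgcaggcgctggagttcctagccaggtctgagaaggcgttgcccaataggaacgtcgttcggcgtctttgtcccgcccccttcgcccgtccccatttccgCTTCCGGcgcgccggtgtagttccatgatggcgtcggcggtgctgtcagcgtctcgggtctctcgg
Uqcrh, chr4:116075021-116075320, minus strand: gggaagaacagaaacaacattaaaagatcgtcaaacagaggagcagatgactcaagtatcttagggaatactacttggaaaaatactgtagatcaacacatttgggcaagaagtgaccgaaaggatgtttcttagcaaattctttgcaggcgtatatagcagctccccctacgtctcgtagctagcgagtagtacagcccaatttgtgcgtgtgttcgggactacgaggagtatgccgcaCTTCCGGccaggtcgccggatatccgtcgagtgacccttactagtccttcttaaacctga

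Library totals were 49.0 to 61.0 megacounts, and 3 counts, the most that a count of 0 allows, were worth 0.0492 to 0.0612 CPM (counts scaled to 1 megacount of the library). Epithelial markers were high in all libraries, but their summed level differed between groups: 3614 and 3784 CPM with lenvatinib, 13615 and 16330 CPM in resistant and 7178 to 10053 CPM in parental libraries. The markers did not move together with lenvatinib. Krt8, Krt18 and Krt19 were below all parental lines, Epcam overlapped them and Cdh1 was above them. Krt19 had 267 and 405 CPM with lenvatinib against 2790 to 3181 CPM in parental libraries, and Cdh1 had 977 and 731 CPM against 607 to 678 CPM. Of 7 hepatocyte markers, Alb, Serpina1a, Fgb and Cps1 had 0 counts in all 8 libraries and the list summed to at most 1.98 CPM, so the hepatocellular label is not borne out by these markers. The summed markers of fibroblasts reached 1.10 CPM (4 of 6 genes at 0), of leukocytes 1.20 CPM (2 of 4 at 0, Ptprc among them) and of endothelium 0.407 CPM (Kdr and Cdh5 at 0). Muscle markers, relevant to the muscle isoforms of complex IV, reached 4.33 CPM. The part of the epithelial difference in the results below was not tested. In bulk RNA, fewer cells of a type and less RNA per cell cannot be told apart.

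In parental organoids the mitochondrial members dominated the respiratory chain RNA. They took 8.28%, 6.97%, 8.53% and 7.76% of all counts, with lines ordered by number here and below, whereas the 66 nuclear members together took 0.403%, 0.481%, 0.510% and 0.537%. Per kilobase of transcript, parental levels ran from 23714 ± 1531 CPM for COX1, the catalytic core of complex IV, to 251 ± 77.4 CPM for ND6 (SD, n = 4). ATP6, COX2, ATP8 and CYTB averaged 8553, 7138, 7090 and 6493 CPM per kilobase. Within complex I the range was wide, with ND1 at 5511 ± 1189, ND2 at 3523 ± 831, ND4 at 3460 ± 550, ND4L at 2269 ± 338, ND5 at 2089 ± 540 and ND3 at 800 ± 270 CPM per kilobase. COX3 stood at 5133 ± 757 CPM per kilobase. The neighbours COX2 and ATP8, ATP8 and CYTB, CYTB and ND1, ND1 and COX3, ND2 and ND4, and ND4L and ND5 differed by less than the larger of their SDs. ND6, the only member on the other strand, overlaps ND5, and whether the counting used strand is not stated, so reads of the pair may not be told apart there.

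Among the mitochondrial genes, parental lines differed from each other most in ND3. Its coefficient of variation over the 4 parental lines was 33.8%, against 6.46% for COX1. Line SNU-6622 was the lowest parental line for all mitochondrial genes but COX1, for which it was second highest. The plot of mitochondrial levels shows these values together with the other groups.

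**Figure D1:**
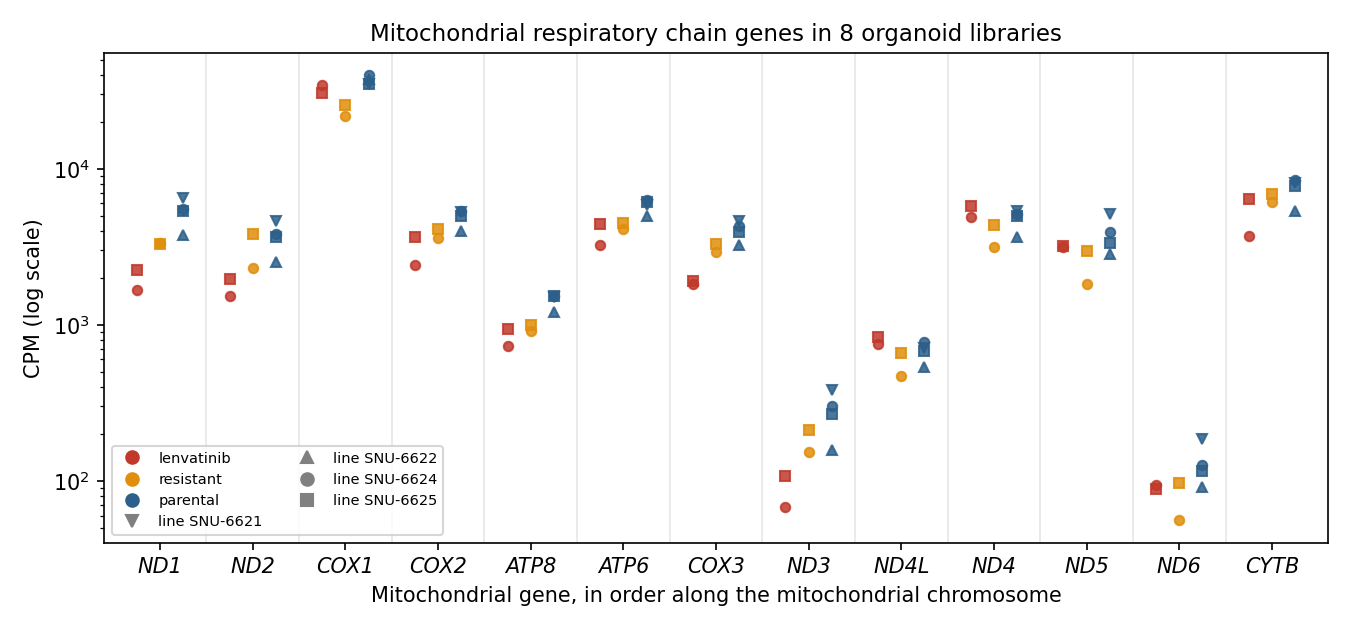
Level of each of the 13 mitochondrial genes (CPM, log axis) in each of the 8 libraries, genes in chromosomal order; colours are groups and symbols are lines. For ND1, ND3 and COX3 both lenvatinib points lie below all parental and resistant points, while ND4 and ND4L lenvatinib points lie within or above the parental range.

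Lenvatinib against parental organoids asks what exposure to the drug changed. Mitochondrial mRNAs were lower in treated organoids, but unevenly: mRNAs for ND1, ND2, ND3 and COX3 had log2 fold changes of -1.85 to -1.21, while ND4 and ND4L stayed near 0. ND3 was the only member past the threshold of an adjusted p of 0.05, and no nuclear member passed. Over all 17038 genes tested, 4.08% fell and 1.7% rose at that threshold (5.78% in either direction), so 1 fall among 13 mitochondrial and 0 among 60 nuclear members tested is not far from the background. The fit was edgeR's quasi-likelihood test on 6 libraries, those of line SNU-6624 and line SNU-6625, with line as a term.

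ND3, a small hydrophobic core subunit of complex I, had 67.7 and 107 CPM in lenvatinib libraries SNU-6624 and SNU-6625, 154 and 213 CPM in resistant libraries, and 384, 158, 303 and 269 CPM in the parental lines. Both lenvatinib values were below all parental values. Its log2 fold change was -1.85 ± 0.28 (SE, adjusted p = 0.0446, edgeR), with -2.21 in line SNU-6624 and -1.44 in line SNU-6625. The call rested on every lenvatinib and parental library of these lines: without any 1 of the 4, the adjusted p was 0.181 to 0.352. Under the same exclusions no gene of the whole table was called.

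ND1, the core subunit next to the quinone-binding site, had 1662 and 2249 CPM in lenvatinib, 3330 and 3272 CPM in resistant and 6498, 3747, 5484 and 5368 CPM in parental libraries. COX3, a core subunit of complex IV, had 1820 and 1913 CPM in lenvatinib, 2908 and 3292 CPM in resistant and 4611, 3240, 4319 and 3926 CPM in parental libraries. ND2, a proton-pumping core subunit, had 1538 and 1958 CPM in lenvatinib, 2310 and 3792 CPM in resistant and 4619, 2527, 3832 and 3647 CPM in parental libraries. In all 3 genes, put together here by their fold changes, the lenvatinib values were the lowest of the 8 libraries, with no overlap. Of all genes, 21.4% had both lenvatinib libraries below all 4 parental libraries. The share that was also below the resistant libraries was not counted. The log2 fold changes with lenvatinib were -1.57 ± 0.32 for ND1 (adjusted p = 0.0628), -1.23 ± 0.32 for COX3 (0.0863) and -1.21 ± 0.37 for ND2 (0.116; ± SE, edgeR).

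A middle group held both ATP synthase genes, COX2 and CYTB. ATP8 had 734 and 947 CPM in lenvatinib, 912 and 1004 CPM in resistant and 1506, 1214, 1530 and 1535 CPM in parental libraries. ATP6, the proton channel subunit of ATP synthase, had 3255 and 4424 CPM in lenvatinib, 4116 and 4507 CPM in resistant and 5870, 4997, 6287 and 6143 CPM in parental libraries. For both genes the parental lines were above all 4 other libraries. COX2, which takes electrons from cytochrome c, had 2433 and 3644 CPM in lenvatinib, 3617 and 4090 CPM in resistant and 5301, 3962, 5321 and 4946 CPM in parental libraries. CYTB, the mitochondrial core of complex III, had 3681 and 6380 CPM in lenvatinib, 6083 and 6902 CPM in resistant and 8039, 5363, 8513 and 7799 CPM in parental libraries, and its groups overlapped. Their log2 fold changes with lenvatinib were -0.96 for ATP8, -0.87 for COX2, -0.84 for CYTB and -0.80 for ATP6, with adjusted p-values of 0.0841 to 0.232 (edgeR).

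The remaining mitochondrial genes stayed closer to the parental level. COX1 had 34323 and 30351 CPM in lenvatinib, 21720 and 25563 CPM in resistant and 34646, 37341, 39680 and 34882 CPM in parental libraries. ND4, a proton-pumping subunit of complex I, had 4903 and 5793 CPM in lenvatinib, 3151 and 4379 CPM in resistant and 5335, 3656, 5137 and 4946 CPM in parental libraries. ND4L had 749 and 831 CPM in lenvatinib, 473 and 662 CPM in resistant and 711, 534, 770 and 679 CPM in parental libraries. For COX1 both lenvatinib values lay just below the parental range, and for ND4 and ND4L they lay inside or above it. ND5, another proton-pumping subunit, had 3152 and 3188 CPM in lenvatinib, 1835 and 2991 CPM in resistant and 5117, 2825, 3948 and 3349 CPM in parental libraries. ND6 had 93.7 and 89.2 CPM in lenvatinib, 55.9 and 96.5 CPM in resistant and 186, 91.2, 127 and 116 CPM in parental libraries. Log2 fold changes with lenvatinib were -0.49 for ND6, -0.29 for ND5, -0.28 for COX1, -0.01 for ND4 and 0.03 for ND4L, with standard errors of 0.29 to 0.54. The sign of ND4, ND4L and ND5 changed when some libraries were left out.

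Across the 13 genes the median log2 fold change with lenvatinib was -0.84, with 12 of 13 below 0, beside -0.11 for the 60 nuclear members tested and -0.01 for all genes tested. The mitochondrial median was -1.11 in line SNU-6624 and -0.55 in line SNU-6625. It ran from -0.87 to -0.74 under the other scalings of the libraries. In 8 of 13 mitochondrial genes (ATP6, ATP8, COX1, COX2, COX3, ND1, ND2 and ND3) both lenvatinib libraries lay below all 4 parental lines, where 21.4% of all genes did so. None lay above all parental lines, where 30.9% of all genes did.

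The number of calls depended on the resistant libraries, which enter this comparison through the shared estimate of the spread. With only the 4 lenvatinib and parental libraries of the lines compared in the fit, 34 of 73 members tested were called, 9 mitochondrial and 25 nuclear, beside 48.3% of all genes. Of the nuclear calls 5 were rises and 20 falls, and all 9 mitochondrial calls were falls. Without either resistant library 31 members were called, beside 43.3% or 43.7% of all genes. DESeq2 called 8 mitochondrial and 4 nuclear members, all falls, beside 21.4% of all genes.

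**Figure D2:**
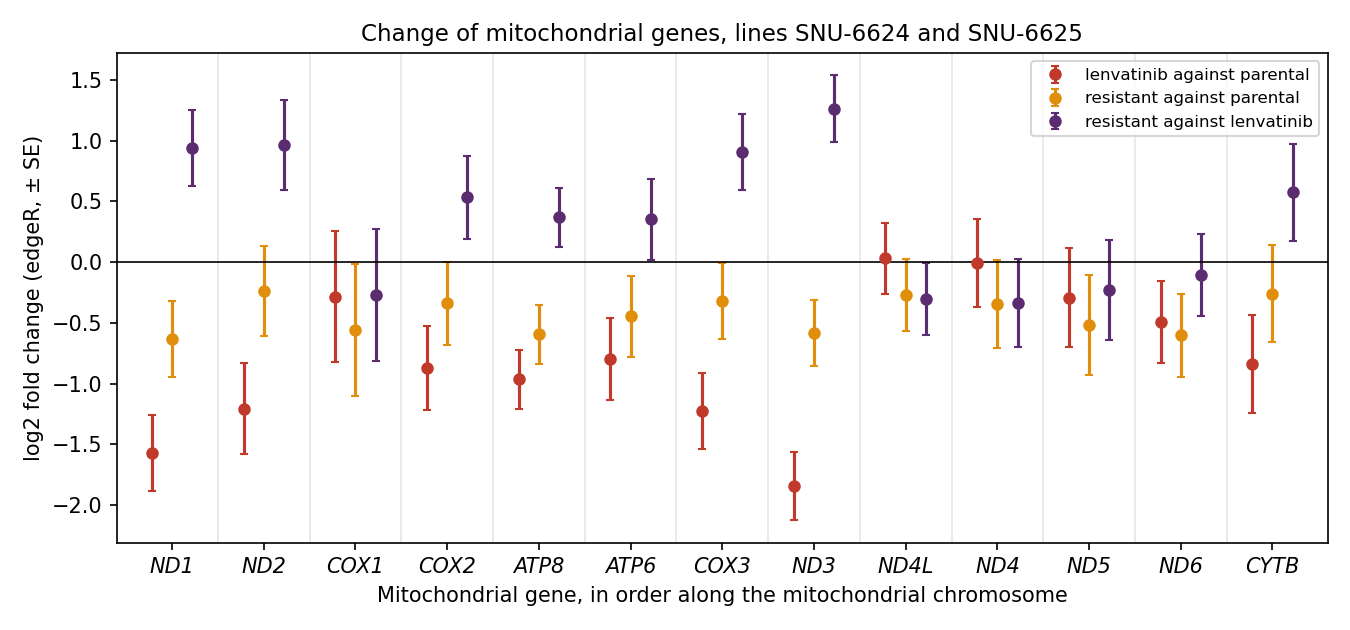
log2 fold change ± SE (edgeR) of each mitochondrial gene in chromosomal order for the 3 comparisons within lines SNU-6624 and SNU-6625. Lenvatinib against parental ranges from -1.85 (ND3) to 0.03 (ND4L), while resistant against parental lies between -0.63 and -0.24 in all 13 genes.

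Ratios of counts within a library need no scaling. ND4 counts per ND1 count were 2.95 and 2.58 in lenvatinib, 0.946 and 1.34 in resistant and 0.821 to 0.976 in parental libraries. COX1 counts per COX3 count were 18.9 and 15.9 in lenvatinib, 7.47 and 7.76 in resistant and 7.51 to 11.5 in parental libraries. Both ratios were higher in the 2 lenvatinib libraries than in the other 6. These ratios were chosen after the values were seen, so they carry no test. Overlapping genes varied less against each other: ND4L counts per ND4 count were 0.153 and 0.143 in lenvatinib, 0.150 and 0.151 in resistant and 0.133 to 0.150 in parental libraries. ATP8 counts per ATP6 count were 0.226 and 0.214 in lenvatinib, 0.222 and 0.223 in resistant and 0.243 to 0.256 in parental libraries, so that both other groups lay below the parental range. ATP8 and ATP6 are translated from one bicistronic mRNA, as are ND4L and ND4, whose shared bases are printed above.

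COX1 alone took 58.8% and 49.1% of the mitochondrial member counts in lenvatinib, 42.9% and 42.1% in resistant and 41.8% to 53.6% in parental libraries. ND1 took 2.84% and 3.63% in lenvatinib, 6.57% and 5.39% in resistant and 5.38% to 7.85% in parental libraries. COX1 shares overlapped between lenvatinib and parental libraries, while ND1 shares did not.

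Other mitochondrial RNAs were lower as well, and their part in the result was not tested. The 12S rRNA gene mt-Rnr1 had 173 and 207 CPM in lenvatinib, 174 and 127 CPM in resistant and 323 to 537 CPM in parental libraries. The 16S rRNA gene mt-Rnr2 had 276 and 325 CPM in lenvatinib, 236 and 289 CPM in resistant and 565 to 620 CPM in parental libraries. The 22 mitochondrial tRNA genes summed to 144 and 139 CPM in lenvatinib, 82.6 and 123 CPM in resistant and 149 to 189 CPM in parental libraries. Both rRNAs were below the parental range in lenvatinib and in resistant libraries. The libraries were selected for poly(A).

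Relative to the nuclear members, mitochondrial members were lower with lenvatinib. Summed mitochondrial counts per nuclear member count were 12.6 and 11.7 in lenvatinib, 9.28 and 17.8 in resistant and 20.6, 14.5, 16.7 and 14.4 in the parental lines. Both lenvatinib values lay below all parental ones. Within lines, the log2 difference of this ratio between lenvatinib and parental libraries was -0.41 in line SNU-6624 and -0.31 in line SNU-6625. The shares of nuclear members overlapped: they took 0.464% and 0.530% of counts in lenvatinib and 0.403% to 0.537% in parental libraries. The size depended on COX1, the most abundant member: without it the 2 lines differed by -0.78 and -0.42.

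**Figure D3:**
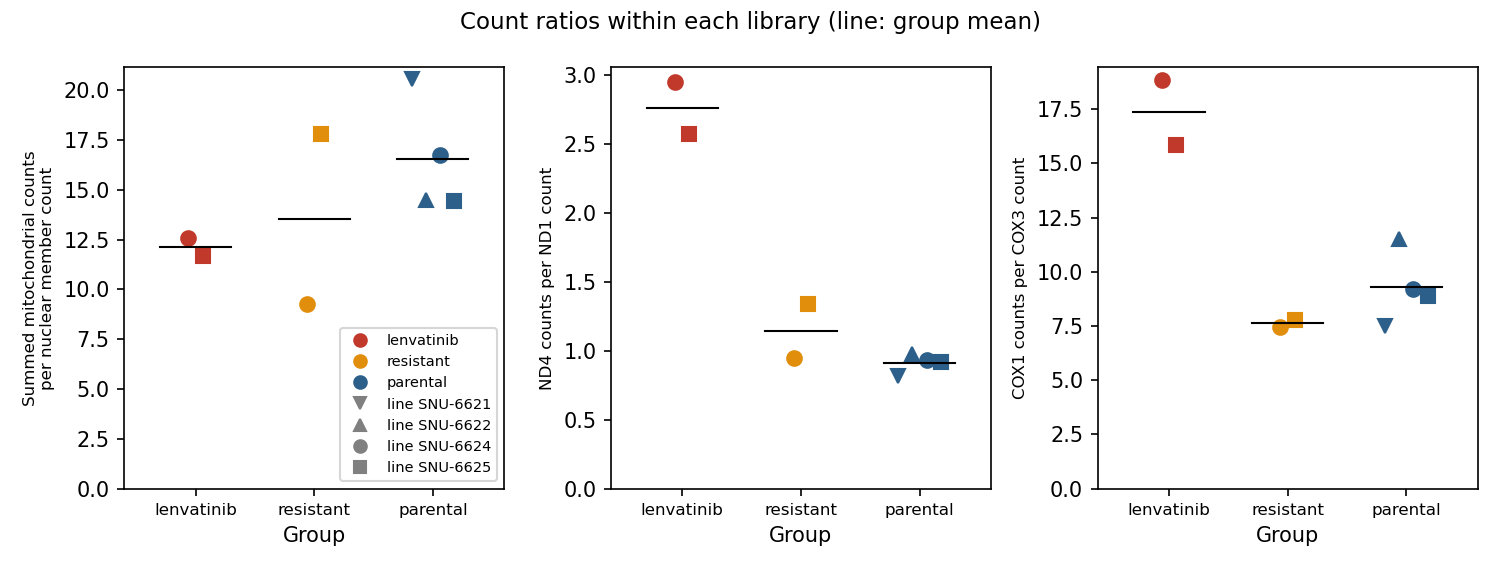
Summed mitochondrial counts per nuclear member count, ND4 counts per ND1 count and COX1 counts per COX3 count in each library (axes start at 0; symbols are lines; black lines are group means). Lenvatinib libraries stand at 2.95 and 2.58 for ND4 per ND1, above the other 6 libraries, while resistant libraries spread from 9.28 to 17.8 for the first ratio.

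With lenvatinib the nuclear medians differed between complexes, a difference that was not tested. Median log2 fold changes were -0.01 for complex I, -0.03 for complex II, -0.40 for complex III and -0.34 for complex IV, beside -0.01 for all genes tested. Complex III was below 0 in 7 of 8 genes and complex IV in 10 of 12 genes tested. The medians of complex III were -0.50 in line SNU-6624 and -0.32 in line SNU-6625, and those of complex IV -0.33 and -0.32. At an unadjusted p under 0.05, 5 nuclear members were lower and 2 were higher, 8.33% and 3.33% of those tested, beside 17.2% and 14.6% of all genes. Both lenvatinib libraries were below all parental lines in 5 nuclear members (Cox7b, Uqcrc2, Ndufb2, Ndufs8 and Ndufs1), 8.33% of those tested, beside 21.4% of all genes. They were above all parental lines in 15 (25%), beside 30.9% of all genes. Of these 13 belong to complex I, 36.1% of its 36 genes, a share near that of all genes.

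Within complex I, Ndufb2, an accessory subunit of the membrane arm, had the lowest fold change. It had 4.74 and 7.94 CPM in lenvatinib, 18.9 and 4.82 CPM in resistant and 16.1, 14.5, 20.5 and 21.1 CPM in parental libraries. Its log2 fold change with lenvatinib was -1.77 ± 0.63 (SE, adjusted p = 0.146, edgeR), and resistant library SNU-6625 was as low as the treated ones. Ndufs5, an accessory subunit with cysteine motifs, lay at the other end with 38.2 and 44.7 CPM in lenvatinib, 31.9 and 23.9 CPM in resistant and 25.0 to 27.1 CPM in parental libraries. Its log2 fold change was 0.56 ± 0.17 (adjusted p = 0.11), and both treated libraries were above the other 6.

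Ndufs1 and Ndufs8, subunits of the electron path, had lower values at an unadjusted p under 0.05, and Ndufb9 a higher one. Ndufs1, Ndufs8 and Ndufb9 were named after their values were seen. Ndufs1, the large subunit of the electron input module, had 52.5 and 63.0 CPM in lenvatinib, 86.0 and 60.3 CPM in resistant and 70.0 to 96.3 CPM in parental libraries. Ndufs8, which carries a pair of iron-sulfur clusters, had 25.0 and 32.2 CPM in lenvatinib, 32.4 and 26.4 CPM in resistant and 35.0 to 41.7 CPM in parental libraries. For both genes the treated libraries were below all parental lines. Ndufb9, the second nuclear member with a higher value at that level, had 101 and 107 CPM in lenvatinib, 86.2 and 64.8 CPM in resistant and 57.1 to 72.7 CPM in parental libraries. Ndufb9 was higher in both treated libraries than in the other 6.

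Complex II, which also works in the tricarboxylic acid cycle, had values close to the parental ones. Sdha, the flavoprotein, had 306 and 299 CPM in lenvatinib, 347 and 209 CPM in resistant and 246, 309, 296 and 289 CPM in parental libraries. Sdhc, a membrane anchor, had 136 and 153 CPM in lenvatinib, 128 and 101 CPM in resistant and 95.1 to 137 CPM in parental libraries. With lenvatinib the 4 genes lay between -0.20 ± 0.23 for Sdhd and 0.07 ± 0.16 for Sdhc (log2 ± SE), which does not show that they were equal to parental levels.

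In complex III the core genes Uqcrc2 and Uqcrc1 had the highest CPM averaged over all 8 libraries, though not in each group. Uqcrc2 had 137 and 158 CPM in lenvatinib, 181 and 112 CPM in resistant and 173 to 182 CPM in parental libraries. Uqcrc1 had 132 and 161 CPM in lenvatinib, 178 and 149 CPM in resistant and 123 to 155 CPM in parental libraries. Uqcrc2 was below the parental range in both treated libraries and Uqcrc1 overlapped it. The lowest fold change was that of Uqcrh, which had 88.4 and 128 CPM in lenvatinib, 140 and 70.8 CPM in resistant and 109, 160, 187 and 175 CPM in parental libraries. Its log2 fold change was -0.82 ± 0.33 (adjusted p = 0.173, edgeR). Uqcrq, a small subunit, had 99.6 and 111 CPM in lenvatinib, 99.1 and 58.9 CPM in resistant and 51.1 to 80.2 CPM in parental libraries, with a log2 fold change of 0.33 ± 0.21.

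In complex IV, whose catalytic core is mitochondrial, the nuclear subunits surround and regulate the enzyme. Cox7b, a small membrane subunit, had 58.2 and 72.4 CPM in lenvatinib, 120 and 50.8 CPM in resistant and 86.9, 105, 102 and 127 CPM in parental libraries. Its log2 fold change with lenvatinib was -0.90 ± 0.38 (adjusted p = 0.189). Cox5a, which binds the matrix side, was at the other end with 117 and 130 CPM in lenvatinib, 113 and 82.3 CPM in resistant and 72.8 to 107 CPM in parental libraries, and a log2 fold change of 0.13 ± 0.16. Cox5b, a zinc-binding matrix subunit and also lower at an unadjusted p under 0.05, had 50.4 and 59.3 CPM in lenvatinib, 120 and 83.4 CPM in resistant and 54.8, 74.8, 79.0 and 97.1 CPM in parental libraries.

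Isoforms of complex IV that are known from other tissues were absent or near the floor. Cox4i2 (lung), Cox7b2 and Cox8c (testis) and Cox8b (heart and muscle) had 0 counts in all 8 libraries, which allows levels of up to 0.0492 to 0.0612 CPM. Cox6a2 (heart and muscle) reached 0.153 CPM and Cox6b2 (testis) 0.440 CPM, in parental line SNU-6621 in each case. Cox6b2 had 23, 25, 7 and 18 counts in the parental lines and 0 in the lenvatinib and resistant libraries. These 6 genes did not pass the filter on low counts and were not tested in the main fit. Cox7a1 (heart and muscle) had 0.477 and 0.533 CPM in lenvatinib, 0.772 and 0.344 CPM in resistant and 0.344 to 1.40 CPM in parental libraries. Their widely expressed counterparts were abundant: in parental lines Cox8a had 172 to 240 CPM, Cox7a2l 178 to 225, Cox4i1 154 to 211, Cox6a1 103 to 175, Cox6b1 125 to 166 and Cox7a2 53.2 to 90.9 CPM.

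Resistant against parental organoids asks what differed in lines that had become resistant. No gene passed the adjusted threshold in this comparison (0% of 17038, lowest adjusted p 0.247, edgeR), and no member did. At an unadjusted p under 0.05 no mitochondrial and 2 nuclear members were lower, and none was higher, beside 7.84% lower and 8.1% higher among all genes. DESeq2 called 1 member, Ndufa6, beside 6.48% of all genes, and limma none. The comparison shares its parental libraries with that of lenvatinib.

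Mitochondrial values were below parental ones in this comparison too, but more evenly. All 13 log2 fold changes lay between -0.63 (ND1) and -0.24 (ND2), with a median of -0.45, beside -0.14 for nuclear members and -0.01 for all genes. ND1, ND6, ATP8, ND3 and COX1 had values of -0.63, -0.60, -0.59, -0.58 and -0.56, with standard errors of 0.24 to 0.54 and adjusted p-values of 0.327 to 0.613 (edgeR). The signs of CYTB (-0.26), ND4L (-0.27) and ND2 changed when some libraries were left out. ATP6, ATP8, COX1 and ND1 were below all 4 parental lines in both resistant libraries, 4 of 13 genes, where 15.1% of all genes were.

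The difference was larger in line SNU-6624. There the mitochondrial median was -0.74 with all 13 genes below 0, and in line SNU-6625 it was -0.07 with 8 of 13 below 0. Scaling matters for line SNU-6625: mitochondrial members took 6.08% of counts in the resistant library and 7.76% in the parental one, while the TMM factors used in the fit were 0.883 and 1.01.

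The 2 resistant lines also differed in their nuclear members. In line SNU-6624 the nuclear median against the parental library was 0.12, with 42 of 60 genes above 0, and in line SNU-6625 it was -0.41, with 53 of 60 below 0. By complex, line SNU-6625 stood at -0.36 for complex I, -0.26 for complex II, -0.65 for complex III and -0.68 for complex IV, and line SNU-6624 at 0.19, 0.02, 0.06 and 0.09. Resistant library SNU-6625 had the lowest share of nuclear members of the 8 libraries, 0.342%, and resistant library SNU-6624 the highest, 0.546%. The summed ratio of mitochondrial to nuclear counts differed by -0.85 in line SNU-6624 and 0.30 in line SNU-6625 on the log2 scale. Without resistant library SNU-6624, 28 nuclear members were called lower in the fit, beside 32.3% of all genes, and without resistant library SNU-6625 only ND5 and ND6 were, beside 3.26% of all genes. These counts rest on 1 resistant library, assumed to vary like the other groups.

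**Figure D4:**
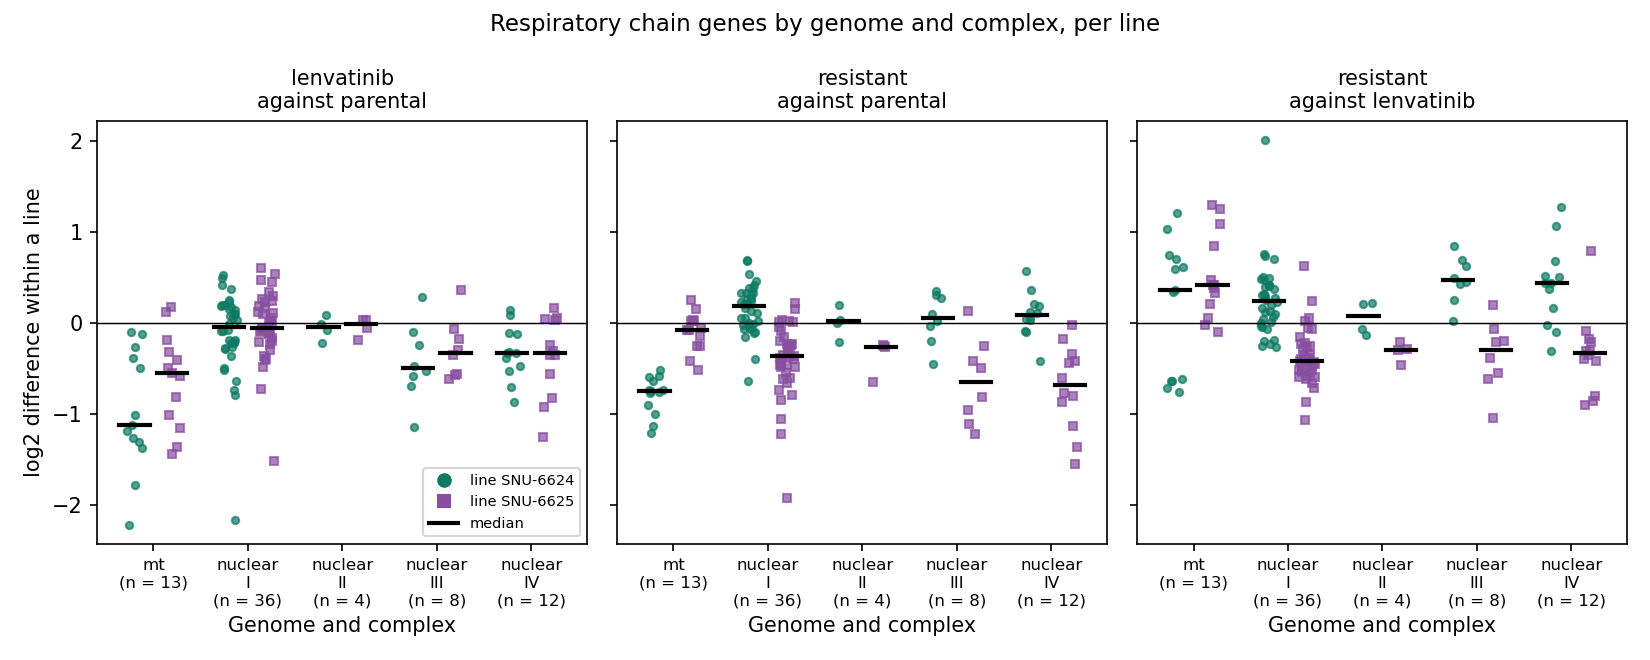
log2 difference within line SNU-6624 (circles) and line SNU-6625 (squares) for the mitochondrial genes (mt) and the tested nuclear genes by complex, in the 3 comparisons; each point is a gene and bars are medians. With lenvatinib the 2 lines have similar nuclear medians. In both resistant comparisons the nuclear medians of complexes I to IV lie above 0 in line SNU-6624 and below 0 in line SNU-6625. Complex II is closest to 0 in line SNU-6624 (0.02 against parental and 0.08 against lenvatinib libraries).

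Ndufa6 and Cox7a2l were the nuclear members with a p under 0.05 in resistant organoids. Ndufa6, a complex I subunit that binds the mitochondrial acyl carrier protein, had 83.9 and 50.5 CPM in resistant and 90.0, 124, 128 and 121 CPM in parental libraries. Cox7a2l, also known as a factor that joins complexes III and IV into supercomplexes, had 171 and 105 CPM in resistant and 178, 198, 225 and 209 CPM in parental libraries. In both genes the resistant values were below all parental values. The third nuclear member without overlap was Ndufs8, given above; these 3 are 5% of those tested, beside 15.1% of all genes. None was above all parental lines, where 10.3% of all genes were.

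The lowest values of complexes I, III and IV showed how far line SNU-6625 set them. Uqcrh had a log2 fold change of -0.74 ± 0.33 in resistant against parental organoids, with -0.45 in line SNU-6624 and -1.11 in line SNU-6625. Cox7a2 had 81.8 and 30.8 CPM in resistant and 53.2 to 90.9 CPM in parental libraries, with -0.08 in line SNU-6624 and -1.36 in line SNU-6625 (fitted value -0.67 ± 0.37). Ndufb2 had -0.15 and -1.92 in these lines (fitted value -0.88 ± 0.64). All 3 were lower chiefly in line SNU-6625. At the upper end stood Ndufb7, an accessory subunit with 50.2 and 28.7 CPM in resistant and 29.6 to 32.5 CPM in parental libraries (0.37 ± 0.24), Cox5b (0.28 ± 0.20) and Uqcrc1 (0.25 ± 0.16). These were higher chiefly in line SNU-6624, with 0.70, 0.58 and 0.36 there against 0.015, -0.02 and 0.14 in line SNU-6625. Complex II lay between Sdhd at -0.31 ± 0.23 and Sdha at -0.02 ± 0.21.

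Resistant against lenvatinib-treated organoids compares both drug-related states directly. No member was called by edgeR, where 4.14% of all genes rose and 2.08% fell (6.23% in either direction). At an unadjusted p under 0.05, 3 mitochondrial members (COX3, ND1 and ND3) and 3 nuclear members, Cox5b and Ndufs1 among them, were higher and 1 nuclear member (Cox7a2l) was lower, beside 16.4% and 14% of all genes. DESeq2 called 6 members, all higher, 4 of them mitochondrial (ND1, ND2, ND3 and COX3), beside 20.8% of all genes.

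The mitochondrial genes again differed among themselves. ND3 (1.26 ± 0.27, adjusted p = 0.067), ND2 (0.96 ± 0.37, 0.170), ND1 (0.94 ± 0.31, 0.133) and COX3 (0.91 ± 0.31, 0.143) had the highest values, log2 ± SE from edgeR. In these 4 genes both resistant libraries were above both lenvatinib libraries, where 22.3% of all genes were. COX1, ND4, ND4L and ND5 were below in both in unscaled CPM, where 36.4% of all genes were. Their fitted log2 fold changes were -0.27, -0.34, -0.30 and -0.23. On the TMM scale of the fit this held in line SNU-6624 only, with -0.63, -0.61, -0.63 and -0.75. In line SNU-6625 the differences, in the same order of genes, were 0.06, -0.10, -0.02 and 0.22. CYTB, COX2, ATP8 and ATP6 lay between in the fit, at 0.57, 0.53, 0.37 and 0.35, and ND6 at -0.11. The signs of COX1, ND4L, ND5 and ND6 changed without resistant library SNU-6624, and that of ND6 also without lenvatinib library SNU-6624. The mitochondrial median was 0.37 in line SNU-6624 and 0.42 in line SNU-6625.

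Among nuclear members Cox5b had the highest value in this comparison, with a log2 fold change of 1.05 ± 0.20 (adjusted p = 0.0568, edgeR), 1.28 in line SNU-6624 and 0.80 in line SNU-6625. Both resistant libraries were above both treated ones for Cox5b. Cox7a2l lay at the other end of complex IV, at -0.58 ± 0.20, with -0.31 and -0.85 in the 2 lines. Ndufs7, which carries the last iron-sulfur cluster before the quinone, had 60.5 and 30.8 CPM in resistant and 70.2 and 69.4 CPM in lenvatinib libraries, and a log2 fold change of -0.51 ± 0.23. Ndufb2 (0.89 ± 0.65), Uqcr11 (0.36 ± 0.32) and Uqcr10 (-0.35 ± 0.37) had standard errors near or above their values. In complex II, Sdhb, the iron-sulfur subunit, lay at -0.21 ± 0.14 and Sdha at 0.01 ± 0.21. The median of nuclear members was 0.29 in line SNU-6624 and -0.39 in line SNU-6625, with 47 of 60 above 0 in the first line and 54 of 60 below 0 in the second.

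Genes that build, feed or regulate the chain are given as 9 lists, which were chosen with earlier results known. Their calls with lenvatinib stand beside 1.7% of all genes that rose and 4.08% that fell. Of 27 genes for mitochondrial DNA and RNA, 1 rose and none fell: Polrmt, the mitochondrial RNA polymerase, had 50.1 and 50.5 CPM in lenvatinib, 27.3 and 27.1 CPM in resistant and 20.6 to 27.8 CPM in parental libraries, a log2 fold change of 1.05 ± 0.16 (adjusted p = 0.0442, edgeR). Of 10 biogenesis regulators 1 rose, Pprc1, a coactivator of the PGC-1 family, with 107 and 97.5 CPM in lenvatinib, 56.8 and 50.2 CPM in resistant and 45.2 to 51.7 CPM in parental libraries (1.0 ± 0.15, 0.043). For both genes the treated libraries were above the other 6, while mitochondrial mRNAs in the same libraries were lower or near parental levels. Other biogenesis regulators lay on both sides of the parental level without a call. Yy1 had 173 and 164 CPM in lenvatinib and 138 to 147 CPM in parental libraries. Ppargc1a, at most 6.61 CPM, was at -1.92 ± 0.62 (adjusted p = 0.123) and Esrra at -0.51 ± 0.18 (0.136, edgeR). Of 14 chaperones, proteases and their regulators 2 rose and 1 fell. Hspe1 (1.37 ± 0.18), the small partner of the matrix chaperonin, had 185 and 179 CPM in lenvatinib, 110 and 115 CPM in resistant and 59.3 to 69.9 CPM in parental libraries. Atf5 (1.62 ± 0.25), a factor of the mitochondrial stress response, had 75.0 and 49.6 CPM in lenvatinib, 28.4 and 25.1 CPM in resistant and 71.9, 22.5, 24.3 and 14.4 CPM in parental libraries, so that parental line SNU-6621 overlapped the treated ones. Spg7 (-0.84 ± 0.14), a subunit of an inner membrane protease, fell to 31.9 and 44.4 CPM in lenvatinib, against 53.1 to 73.9 CPM in parental libraries. The medians of these 3 lists were 0.39, -0.07 and 0.36, beside -0.01 for all genes.

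Of 78 mitochondrial ribosomal protein genes 1 rose (Mrpl2, 0.99 ± 0.14) and 1 fell (Mrpl54, -1.25 ± 0.19), with a median of 0.16. No gene was called among 17 nuclear ATP synthase genes (median -0.38), 15 complex I assembly factors (0.38), 25 complex III and IV assembly factors tested (0.17), 17 tricarboxylic acid cycle genes (-0.16) and 21 electron carriers and alternative entry enzymes (-0.02). At an unadjusted p under 0.05 these lists held 2, 3, 6, 3 and 2 genes, beside 14.6% of all genes higher and 17.2% lower. Each of the 7 calls was lost without any 1 of the 4 lenvatinib and parental libraries, and without the filter on low counts.

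In resistant against parental organoids none of the 9 lists held a call. In resistant against lenvatinib organoids 3 list genes were called, beside 6.23% of all genes: Mrpl54 rose (1.19 ± 0.19, adjusted p = 0.045), and Mrps10 (-0.88 ± 0.14, 0.0432) and Coq5 (-1.27 ± 0.17, 0.0392), a methyltransferase of coenzyme Q synthesis, fell (edgeR). Coq5 had 19.4 and 12.5 CPM in resistant, 42.2 and 42.2 CPM in lenvatinib and 24.1 to 30.3 CPM in parental libraries. These 3 calls, too, were lost without any 1 of the lenvatinib or parental libraries.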

How the data were processed

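Poly(A) RNA libraries (stranded kit, per the labels' protocols) of 8 organoid cultures were analysed. The authors deposited whole-number read counts per gene; the submitters' processing notes name build mm10, StringTie 2.1.3b, HISAT2 2.1.0, Trimmomatic 0.38, Bowtie2 2.3.4.1 and FastQC 0.11.7, with no order. How reads were counted, by strand or not, and where reads that fit several places went is not stated, so overlapping genes and nuclear copies of mitochondrial DNA may share reads with members.

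CPM are counts scaled to 1 megacount of a library, with no other scaling. Fold changes are from edgeR 4.0.16 (R 4.3.3, quasi-likelihood F test, TMM, default filter on low counts, 17038 genes, Benjamini-Hochberg adjustment over all of them, threshold 0.05), with group and line as terms on 6 libraries, from line SNU-6624 and line SNU-6625. Standard errors were taken as the size of the fold change over the root of its F value. There were 2 residual and 2.53 prior degrees of freedom. Samples were paired by line, and deviations from group means within a line correlated at 0.29 (lenvatinib and resistant), 0.50 (lenvatinib and parental) and 0.29 (resistant and parental). Parental lines SNU-6621 and SNU-6622 enter levels only. Values per line are differences of log2 TMM-scaled CPM with a prior count of 2. Lengths are merged exons of GENCODE M21, and all 79 members were matched to RefSeq positions by gene ID.

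The edgeR fit was run on simulated counts with less spread than the data and no differences between lines. That run checks the code and does not show how well changes are found in these data. Alternatives were no line term, all 8 libraries, DESeq2 1.42.0, limma 3.58.1 on log2(CPM + 1), other scalings, no filter and each library left out. A fit of the 4 libraries compared was added after seeing the data. Members and lists were chosen with earlier results of these data known. Named nuclear genes are the 2 most abundant of each complex, the highest and lowest fold change per complex and comparison among genes that reach 5 CPM in 1 of the groups compared, and isoform families of complex IV, and from each list the called genes. Ppargc1a, Esrra and Yy1 were added to these. The floors cover counting error only, as the reads carry no molecular identifiers. An item that the naming rule picks is not reported here.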

Additional observations from a re-analysis of the deposited data

Results flagged for a closer look

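In the 4 parental lines, 1 line stood far from the other 3 in 6 of 73 quantities checked, where chance gives about 5%. Line SNU-6624 was high for mitochondrial complex IV (49320 CPM). Line SNU-6621 was low for nuclear complex II (463 CPM), Ndufs7 (41.7 CPM) and Sdhd (90.4 CPM). Line SNU-6622 was low for ATP8 (1214 CPM) and for the share of CYTB in mitochondrial member counts (7.70%).

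In both resistant comparisons, nuclear medians and the mitochondrial to nuclear ratio had opposite signs in lines SNU-6624 and SNU-6625. Uqcrh had opposite signs against lenvatinib libraries only. Mitochondrial medians had the same sign in both lines. The difference between the lines was not tested, with 1 library per line and group. Against parental libraries, the nuclear median was 0.12 in line SNU-6624 and -0.41 in line SNU-6625, and that of nuclear complex I 0.19 and -0.36. Against lenvatinib libraries, in the same order of lines, the nuclear median was 0.29 and -0.39, complex I 0.25 and -0.41, complex III 0.48 and -0.29, complex IV 0.44 and -0.33, and Uqcrh 0.69 and -0.55. The log2 ratio of mitochondrial to nuclear counts differed by -0.85 and 0.30 for resistant against parental, and by -0.44 and 0.61 for resistant against lenvatinib organoids.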

How the results depend on the processing

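With lenvatinib against parental, the ratio of mitochondrial to nuclear counts (mean log2 difference -0.36) became -0.60 without COX1, -0.64 as a mean of log2(CPM + 1) over genes, -0.17 in complex IV and -0.55 in complex I. Members called (1, 0 and 0 for lenvatinib against parental, resistant against parental and resistant against lenvatinib) were 12, 1 and 6 by DESeq2, and 34 for the first comparison with its 4 libraries alone. Without the replicate block (pairing by line), 2 members were called with lenvatinib (ND1, adjusted p = 0.046, besides ND3) and 1, Cox5b, in resistant against lenvatinib organoids; the block changed no other member call. limma called 1 member (Cox5b) in the last comparison, and without the filter on low counts ND3 was lost (adjusted p = 0.063), which left 0. Scaling by library size alone moved the median of all genes by over 0.1 in resistant against lenvatinib organoids (to -0.14), where the mitochondrial median was 0.20, and gave a nuclear median of -0.025 with lenvatinib. It gave 0.074 for ND4 with lenvatinib and -0.15 for Sdha in resistant against lenvatinib organoids; without the block ND4 was 0.000335.

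Leaving out 1 library at a time gave 0 to 31 calls with lenvatinib, 0 to 28 in resistant against parental and 0 to 27 in resistant against lenvatinib organoids. The highest counts, each without resistant library SNU-6624 (the first also without SNU-6625), stand beside 43.3%, 32.3% and 34.9% of all genes called. Mitochondrial medians ran from -1.13 to -0.58, -0.67 to -0.16 and 0.26 to 0.50, and the nuclear median with lenvatinib from -0.34 to 0.052. Signs changed with lenvatinib for ND4 (-0.24 to 0.25), ND4L (-0.24 to 0.34), ND5 (-0.60 to 0.081) and Sdhc (-0.014 to 0.15). In resistant against parental organoids they changed for CYTB (-0.59 to 0.11), ND2 (-0.67 to 0.16), ND4L (-0.66 to 0.088), Ndufb7 (-0.0066 to 0.71), Sdha (-0.26 to 0.19) and Sdhd (-0.65 to 0.0088). In resistant against lenvatinib organoids they changed for COX1 (-0.62 to 0.059), ND4L (-0.71 to 0.059), ND5 (-0.80 to 0.28), ND6 (-0.72 to 0.43), Ndufb2 (-0.25 to 1.83), Sdha (-0.21 to 0.22), Uqcr10 (-1.02 to 0.24) and Uqcr11 (-0.20 to 0.86). The cause was not tested. The 6 isoform genes of complex IV at or near 0 counts did not pass the filter on low counts of the main fit.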
